A study of Homo sapiens with 15 samples.

Results

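The genes of cholesterol and fatty acid synthesis were followed as a list of 36: the regulators of the pathway, the enzymes from acetyl-CoA to cholesterol, the enzymes that make, lengthen and desaturate fatty acids, and a few genes of lipid handling and sterol traffic. The list is of named genes of these pathways, and every one measured is described whether or not it differed. Of the 36, 32 had a probe set assigned to that gene alone, among 11963 genes with such a probe set. FDFT1, CYP51A1, FADS1 and ACSL3 had none and have no value here. Of the 32, 30 passed the filter on dim signal and were tested among 6884 genes, and MVD and TM7SF2 did not pass it.

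A549 is a human lung adenocarcinoma epithelial line, given in the labels as bronchial. Its total RNA was measured on 15 Affymetrix hgu133a arrays, 3 in each of 5 groups. The cells were untreated and harvested at 0 h (control 0 h) or 24 h (control 24 h), or treated with interleukin 13 (IL-13), a cytokine of type 2 inflammation, and harvested after 4 h, 12 h or 24 h. All groups are the same unmodified line, and the labels used here give no IL-13 dose. They do not say whether the replicates a, b and c came from separate cultures, so p-values measure no more than the variation among the arrays of a group, which may be technical. Untreated arrays exist for 0 h and 24 h only, so at 4 h and 12 h the effect of IL-13 and that of time in culture cannot be told apart. In bulk RNA, fewer cells expressing a gene and less RNA per cell also cannot be told apart.

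Cells make cholesterol and fatty acids from cytosolic acetyl-CoA. When sterols are scarce, the escort protein SCAP carries the transcription factors SREBP-1 and SREBP-2 (genes SREBF1 and SREBF2) from the endoplasmic reticulum to the Golgi, where proteases release them to switch on the genes of synthesis. INSIG proteins hold SCAP back when sterols are plentiful, and INSIG1 is itself a target of SREBPs. In the lung these pathways are best known for supplying the lipids of surfactant and of membranes.

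Values are signal intensities per probe set. Each gene was tested with its brightest probe set by limma on quantile-normalized log2(signal + 20), and a gene counted as changed where the Benjamini-Hochberg adjusted p over all tested genes was under 0.05. Differences are in log2 units ± standard error (SE), and the pseudocount of 20 understates the change of dim genes. The 95% interval of a member's difference reached 0.20 to 0.75 log2 to either side, with a median of 0.27. The number of arrays limits this precision. Arrays of 1 group correlated at 0.97 to 0.98. The mean signal of the epithelial keratins was 11242 for KRT18, 4663 for KRT8, 3266 for KRT7 and 161 for KRT19. CDH1, also epithelial, was at 100, and ran from 34.3 to 178 over the arrays. EPCAM was below the filter at 53.9. So were the measured markers of leukocytes, fibroblasts, smooth muscle and hepatocytes, at 10.4 to 50.2, and CDH5 of endothelium at 4.69, while PECAM1 of endothelium was just above it at 66.0. Before normalization the median signal was higher in control 24 h, at 69.5, than in the other groups, at 59.1 to 62.4. The 3'/5' signal ratio of beta-actin, a measure of RNA quality, was 1.0 ± 0.07 in control 0 h, but 1.17 ± 0.07 and 1.18 ± 0.08 in the untreated and IL-13 groups of 24 h (mean ± SD of 3 arrays each). The part of either in the comparisons with those groups was not tested.

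Most of the pathway did not pass the test in any comparison, and 7 members did in at least 1: INSIG1, ELOVL5, SCD, SCD5, FASN, ACLY and NPC2. That is 23.3% of the 30, where 17.5% of all tested genes passed in at least 1 of the 7 comparisons. An unadjusted limma p under 0.05 in at least 1 was seen for 21 members (70%) and for 55% of all tested genes. After 24 h of IL-13, compared with untreated cells of the same time, INSIG1 and ELOVL5 were higher and ACLY and SCD5 lower, 4 of 30 members (13.3%). Of all tested genes 7% passed, 3.94% higher and 3.07% lower. From control 0 h to control 24 h, SCD5 rose and NPC2 fell, 2 of 30 (6.67%), where 3.62% of all genes passed, 1.73% higher and 1.89% lower. INSIG1 was the 1 member of 30 (3.33%) higher at 4 h of IL-13 than at 0 h, where 1.22% of all genes passed, 0.349% higher and 0.872% lower. INSIG1 and ELOVL5 were higher at 12 h than at 0 h, 2 of 30 (6.67%), against 4.14% of all genes, 1.55% higher and 2.59% lower. At 24 h of IL-13 compared with 0 h, ELOVL5 was higher and FASN lower, 2 of 30 (6.67%), against 6.87% of all genes, 3.4% higher and 3.47% lower. Between 12 h and 24 h of IL-13, SCD rose and FASN and INSIG1 fell, 3 of 30 (10%), against 6.2% of all genes, 4.14% higher and 2.06% lower. Between 4 h and 12 h limma called 0 members and 0% of all genes, and 4 members, with 10.1% of all genes, had an unadjusted p under 0.05. These comparisons share groups, above all control 0 h, so a gene that passed in several of them did not do so independently.

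The background itself depended on the scaling. With arrays scaled to a common median over all probe sets, the median of all tested genes moved to 0.14 log2 for IL-13 24 h against control 24 h and to -0.15 for control 24 h against control 0 h. The split of all calls for IL-13 24 h against control 24 h was 271 higher and 211 lower as reported here, 950 and 66 under median scaling, and 435 and 157 where only tested genes set the median. For control 24 h against 0 h it was 119 higher and 130 lower, 51 and 818, and 108 and 270. Median scaling also moved it from 107 higher and 178 lower to 47 and 211 for IL-13 12 h against 0 h, and from 285 and 142 to 349 and 70 for 24 h against 12 h. The 14 differences of members described as changed kept their sign under every alternative tried, though several of these leave the difference itself unchanged. With median scaling 8 members passed in control 24 h against 0 h: SCD5 was higher, and NPC2, INSIG1, FASN, FADS2, HMGCS1, NSDHL and SQLE were lower.

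**Figure D1:**
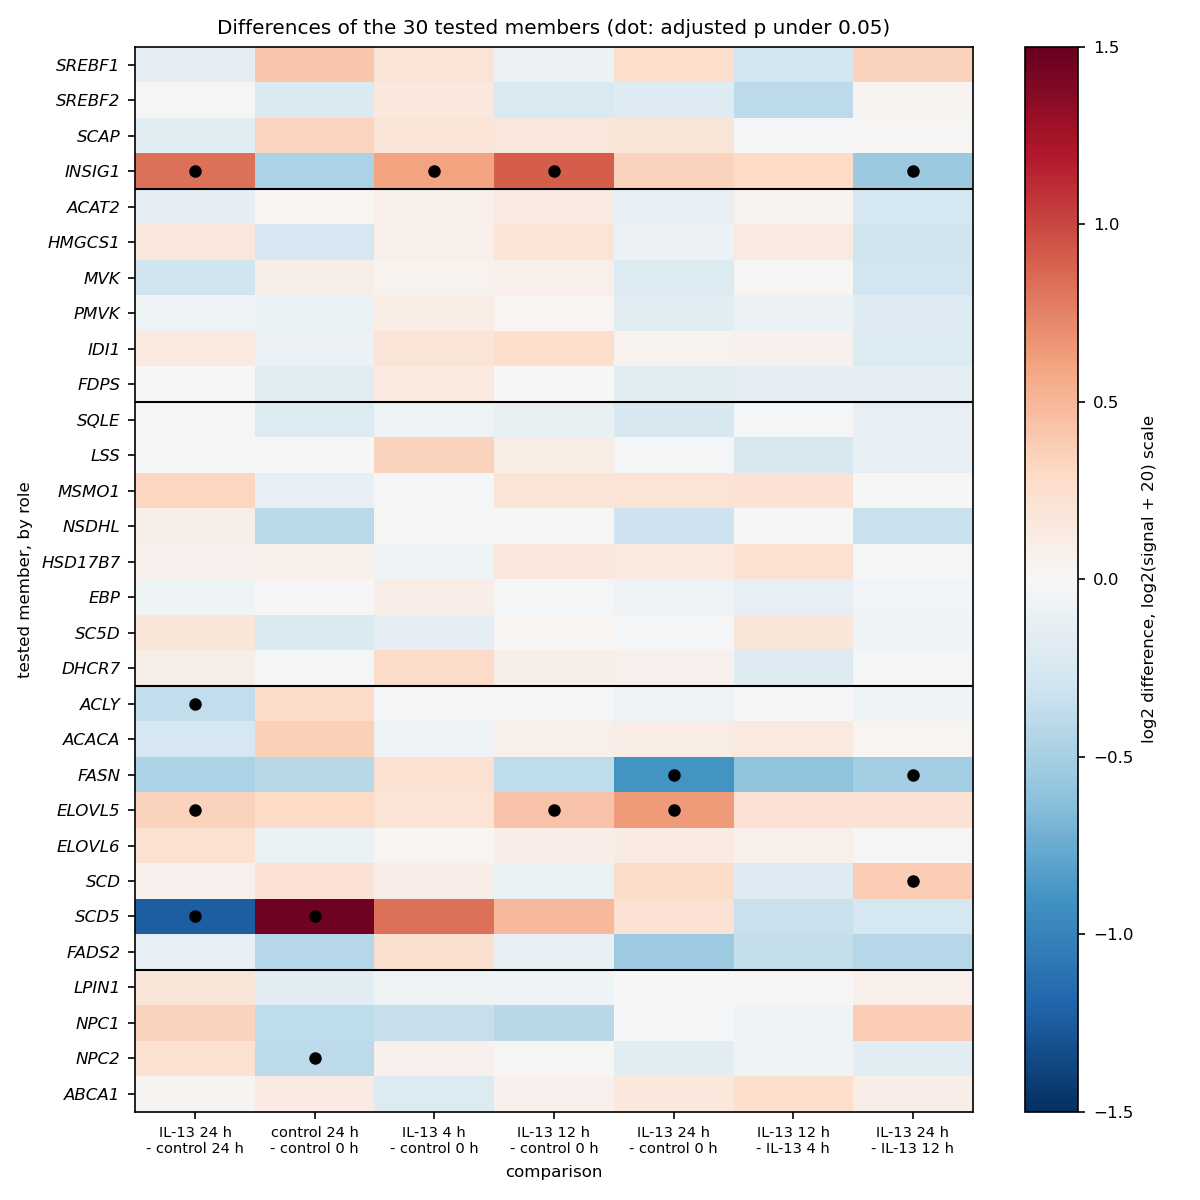
Log2 difference of each of the 30 tested members (rows, ordered by role and separated by lines) in the 7 comparisons (columns), from blue for lower to red for higher, with a dot where the limma adjusted p was under 0.05. Dots stand in the rows of 7 members, 4 of them in the row of INSIG1, and the mevalonate and squalene-to-cholesterol blocks hold none.

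Groups of 3 arrays that did not overlap after normalization were counted too, and the share of members lay above the background in some comparisons and below it in others. It was 6 of 30 members (20%) for IL-13 24 h against control 24 h, where 26.2% of all genes did not overlap. For control 24 h against 0 h it was 11 (36.7%), against 24.7% of all genes. The IL-13 groups compared with control 0 h gave 6 (20%) at 4 h against 17.3%, 6 (20%) at 12 h against 23.7% and 10 (33.3%) at 24 h against 26.7%. Within the IL-13 series it was 4 (13.3%) for 12 h against 4 h, with 14.9% of all genes, and 12 (40%) for 24 h against 12 h, with 25%. Of those 12, 9 were lower at 24 h and 3 higher, where 11.7% of all genes were lower without overlap and 13.3% higher.

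Among the regulators, INSIG1 was the member that passed most often. The signal of its probe set 201627_s_at was 121, 105 and 132 in arrays a, b and c of control 0 h, against 104, 82.1 and 83.4 in those of control 24 h. With IL-13 it was 227, 179 and 175 at 4 h, 258, 215 and 250.5 at 12 h, and 124, 199.995 and 155 at 24 h. Every IL-13 array at 4 h and 12 h lay above every control array, while at 24 h array a fell within the range of control 0 h but above all of control 24 h.

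INSIG1 was 1.77-fold higher with IL-13 than without it at 24 h, by 0.82 ± 0.15 log2 (limma adjusted p = 0.00271). Relative to control 0 h it was higher by 0.61 ± 0.15 at 4 h (limma adjusted p = 0.048) and by 0.90 ± 0.15 at 12 h (limma adjusted p = 0.00133). From 12 h to 24 h of IL-13 it fell by 0.55 (SE 0.15, limma adjusted p = 0.0292). In untreated cells its difference from 0 h to 24 h was -0.48 ± 0.15 (limma adjusted p = 0.0755), and that of IL-13 24 h from control 0 h was 0.35 ± 0.15 (limma adjusted p = 0.175). The other 2 probe sets of INSIG1 had differences of 0.63 and 1.05 for IL-13 24 h against control 24 h, of 0.49 and 0.92 at 4 h and of 0.44 and 1.27 at 12 h. For 24 h against 12 h of IL-13 they had opposite signs, -0.50 and 0.20.

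The calls of INSIG1 at 24 h against control 24 h and at 12 h passed without any 1 of the 6 arrays compared, with differences of 0.68 to 0.96 and of 0.84 to 0.97. At 24 h the call was lost in 1 of 18 alternatives, the model of the compared groups alone, in which another probe set of INSIG1 was the brightest (0.62 ± 0.23, limma adjusted p = 0.142). The 4 h call was lost without any 1 of its 6 arrays (0.51 to 0.66, limma adjusted p from 0.0685 to 0.22), and in 13 of 18 alternatives in all. The fall from 12 h to 24 h was lost without array a or c of either group (-0.55 to -0.41, limma adjusted p from 0.0846 to 0.146), and in 7 of 18 in all.

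SREBF1, SREBF2 and SCAP did not pass in any comparison, though all 3 had an unadjusted limma p under 0.05 in at least 1, as 55% of all genes did. Their signals over the 15 arrays ran from 165 to 329 for SREBF1, from 77.3 to 173 for SREBF2 and from 136 to 247 for SCAP. The smallest p of these 3 belonged to SREBF2, with -0.39 ± 0.15 from 4 h to 12 h of IL-13 (limma adjusted p = 0.359). For IL-13 24 h against control 24 h the 95% interval of the difference was -0.51 to 0.21 log2 for SREBF1, -0.30 to 0.34 for SREBF2 and -0.48 to 0.16 for SCAP. A second probe set of SREBF2 above the filter, 201247_at, lay outside that interval, at -0.40 ± 0.15 with groups that did not overlap. With each probe set as its own test its limma adjusted p was 0.204.

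The promoters of INSIG1 and ELOVL5, both higher at 12 h and 24 h of IL-13, are given with that of SREBF2, which holds the letters of a sterol regulatory element. SREBPs bind such elements together with the factor NF-Y, whose box is CCAAT. Capitals mark TCACNCCAC and CCAAT on either strand, so ATTGG is CCAAT read on the other strand. The 3 sequences are the 250 bases before the RefSeq start in GRCh38.p14, written 5′ to 3′ on the strand of the gene: INSIG1 at chr7:155297628-155297877 (plus strand), ELOVL5 at chr6:53348951-53349200 (minus strand) and SREBF2 at chr22:41832855-41833104 (plus strand).
INSIG1: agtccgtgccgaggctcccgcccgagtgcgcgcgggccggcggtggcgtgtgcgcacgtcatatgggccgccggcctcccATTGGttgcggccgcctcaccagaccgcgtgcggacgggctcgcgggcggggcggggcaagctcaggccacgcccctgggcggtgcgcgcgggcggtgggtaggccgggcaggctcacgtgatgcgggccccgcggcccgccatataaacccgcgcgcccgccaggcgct
ELOVL5: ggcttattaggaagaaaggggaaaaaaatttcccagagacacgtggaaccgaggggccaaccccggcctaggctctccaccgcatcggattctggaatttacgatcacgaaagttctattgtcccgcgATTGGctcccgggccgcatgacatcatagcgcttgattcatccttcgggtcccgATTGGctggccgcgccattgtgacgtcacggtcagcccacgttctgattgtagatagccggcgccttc
SREBF2: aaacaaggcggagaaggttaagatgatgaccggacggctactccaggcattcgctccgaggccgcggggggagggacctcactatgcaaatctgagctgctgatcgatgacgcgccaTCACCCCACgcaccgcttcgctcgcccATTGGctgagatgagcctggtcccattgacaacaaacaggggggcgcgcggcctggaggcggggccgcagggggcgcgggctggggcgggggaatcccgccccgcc

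Of the 36 members, 32 had at least 1 such window, 44 windows in all, counting a gene as a match where any of its windows matched. ACAT2, FDFT1, SQLE and FASN had no window and were not searched, so these are not the same 32 genes as those with a probe set. TCACNCCAC was found in 1 of the 32 (3.12%), SREBF2, where it began 133 bases before the start, and in 1.09% of 27305 genes. CCAAT was found in 22 of the 32 (68.8%) and in 37% of all genes. It began 170 bases before the start of INSIG1, 122 and 68 bases before that of ELOVL5 and 106 bases before that of SREBF2, and no printed match of either motif overlapped another. A match is a description of the letters, and these shares were not tested.

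**Figure D2:**
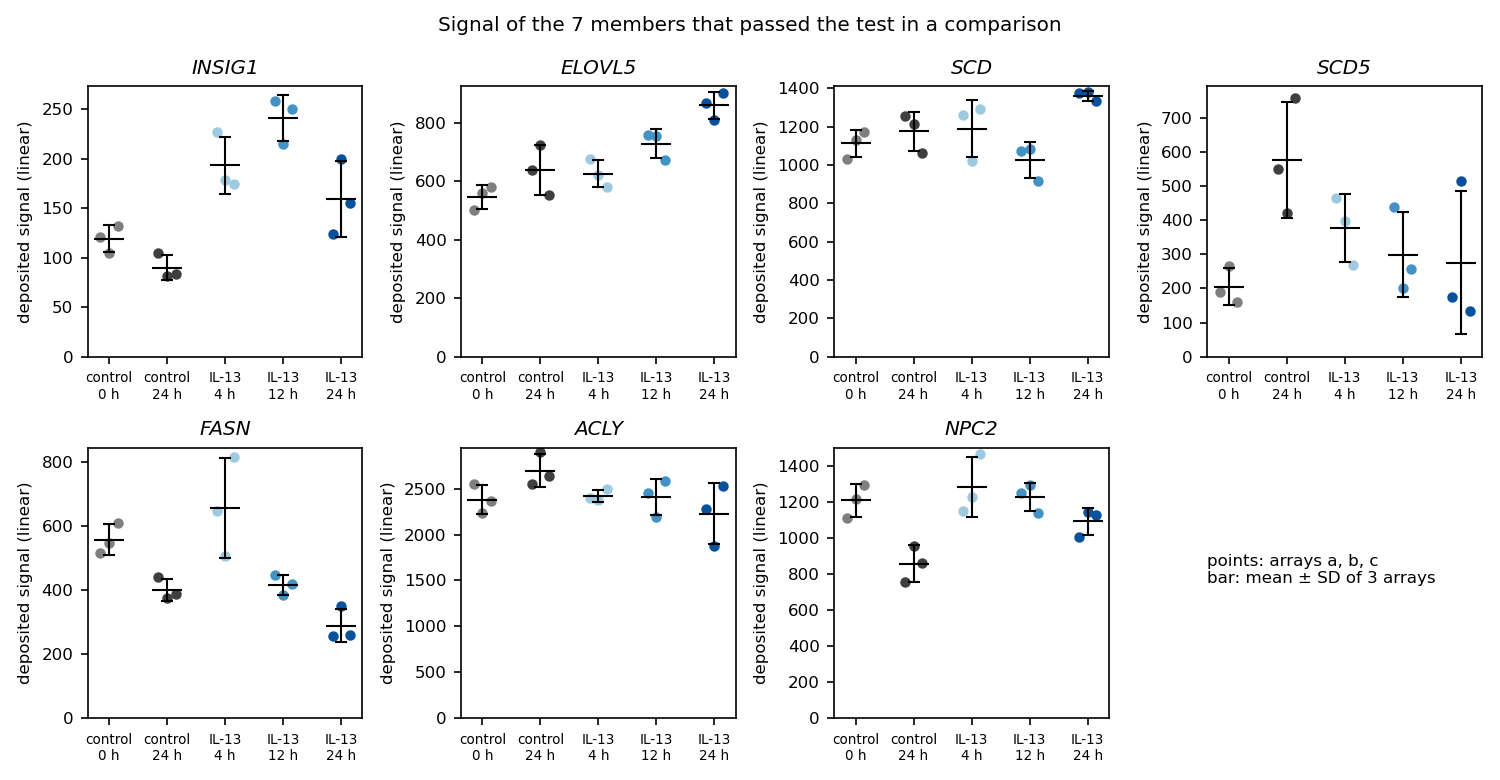
Deposited signal (linear scale) of the 7 members that passed the test in at least 1 comparison, for the 3 arrays of each of the 5 groups (points), with the mean and SD of each group as bars. INSIG1 lies between 82.1 and 132 in the control arrays and between 175 and 258 at 4 h and 12 h of IL-13, and the IL-13 24 h arrays are the highest of all 15 for ELOVL5 and the lowest for FASN.

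The mevalonate enzymes turn acetyl-CoA into farnesyl diphosphate. None of the 6 tested passed in any of the 7 comparisons: ACAT2, which joins acetyl-CoA units; HMGCS1, the HMG-CoA synthase; MVK and PMVK, which phosphorylate mevalonate; IDI1, the isopentenyl diphosphate isomerase; and FDPS, the farnesyl diphosphate synthase. Over all tested genes 17.5% passed in at least 1 comparison. By limma 3 of the 6 had an unadjusted p under 0.05 in at least 1 comparison, near the 55% of all genes. The smallest was that of MVK, lower with IL-13 than without at 24 h by a difference of -0.30 ± 0.12 log2 (limma adjusted p = 0.13). Its signal over the 15 arrays ran from 292 to 457.

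HMGCS1 is a well known SREBP-2 target. Its untreated signal was 185 ± 9.84 at 0 h and 157 ± 13.9 at 24 h, and it was 194 ± 29.9, 213 ± 12.97 and 172 ± 27.7 along the IL-13 times (mean ± SD, 3 arrays each). Its difference was 0.17 ± 0.12 at 24 h against control 24 h (limma adjusted p = 0.421) and 0.21 ± 0.12 at 12 h against 0 h (limma adjusted p = 0.422). The range of differences over the 7 comparisons was -0.26 to 0.14 for ACAT2, -0.19 to 0.12 for PMVK, -0.21 to 0.27 for IDI1 and -0.16 to 0.14 for FDPS. IDI1 rests on a probe set that may bind related transcripts. From 12 h to 24 h of IL-13 the differences of all 6 tested probe sets were negative, -0.29 to -0.15, but no limma adjusted p passed. Of all 6884 tested genes 3508 had a negative difference there. The groups did not overlap for 3 of the 6 members, all lower, where 11.7% of all genes were lower without overlap. The second probe set of HMGCS1, 221750_at, also above the filter, gave 0.09 ± 0.15 there, with groups that overlapped. MVD, the decarboxylase of the same branch, was below the filter: its group means ran from 6.27 to 13.3, and fitted with no filter its differences ran from -0.21 to 0.18 with none called.

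Of the steps from squalene to cholesterol, limma also called 0 of 8 tested members in any comparison. The share of all genes called in at least 1 was again 17.5%. An unadjusted limma p under 0.05 in at least 1 was seen for 4 of the 8, again near the 55% of all genes. SQLE epoxidizes squalene and LSS cyclizes it to lanosterol. MSMO1, NSDHL and HSD17B7 act in the removal of methyl groups from the ring, and EBP, SC5D and DHCR7 carry out late changes to its double bonds. The smallest p was that of LSS, 0.35 ± 0.12 at 4 h of IL-13 against 0 h (limma adjusted p = 0.219), with a signal of 139 to 215 over all arrays.

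NSDHL was next, with -0.40 ± 0.14 from control 0 h to control 24 h (limma adjusted p = 0.115) and groups that did not overlap. Its other probe set, 215093_at, went the other way. That set read 64.9 ± 15.7 in control 0 h and 85.4 ± 19.2 in control 24 h (mean ± SD). SQLE, a step at which flux is controlled, had a signal of 590.1 ± 46.3 and 486 ± 34.6 in the controls of 0 h and 24 h, and 547 ± 47.3, 532 ± 29.0 and 498 ± 34.3 at 4 h, 12 h and 24 h of IL-13. Its IL-13 24 h and control 24 h groups differed by -0.03 ± 0.09, with a 95% interval of -0.23 to 0.17. A second probe set of SQLE, 213577_at, gave -0.41 ± 0.16 from control 0 h to 24 h, its groups not overlapping, and -0.38 ± 0.16 from 12 h to 24 h of IL-13 (each set as its own test, limma adjusted p of 0.264 and 0.322). For MSMO1 the difference of IL-13 24 h from control 24 h was 0.32 ± 0.17 (limma adjusted p = 0.249). Over the 7 comparisons the differences of the tested probe sets ran from -0.06 to 0.23 for HSD17B7, which also rests on a probe set that may bind related transcripts, from -0.12 to 0.10 for EBP, from -0.22 to 0.19 for SC5D and from -0.20 to 0.29 for DHCR7. The 2 probe sets of DHCR7 disagreed. For IL-13 24 h against control 24 h the tested set gave 0.09 ± 0.12, while 201791_s_at, also above the filter, gave -0.41 ± 0.11 with groups that did not overlap (each set as its own test, limma adjusted p = 0.079). From control 0 h to control 24 h the second set gave 0.29 ± 0.11 (limma adjusted p = 0.261), against -0.03 ± 0.12 for the tested set. TM7SF2, a sterol reductase below the filter, had group means of 28.0 to 40.7 and differences of -0.29 to 0.37 with no filter, none called.

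Fatty acid genes held 5 of the 7 members that passed. That is 5 of the 8 tested, where 17.5% of all tested genes passed in at least 1 comparison. The shares of the role groups were not tested. ELOVL5 lengthens polyunsaturated fatty acids. The signal of its probe set 208788_at was 501, 561 and 579 at 0 h and 637, 724 and 554 at 24 h without IL-13. It read 675, 621 and 581 after 4 h of IL-13, 758, 755 and 672 after 12 h, and 866, 810.2 and 902 after 24 h. The 3 arrays with 24 h of IL-13 were the highest of all 15.

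At 24 h ELOVL5 was 1.27-fold higher with IL-13 than without it, by 0.34 ± 0.10 log2 (limma adjusted p = 0.0417). It was higher than control 0 h by 0.43 ± 0.10 at 12 h (limma adjusted p = 0.0198) and by 0.64 ± 0.10 at 24 h (limma adjusted p = 0.00076). The untreated cells had a difference of 0.29 ± 0.10 from 0 h to 24 h (limma adjusted p = 0.105). Its other 2 probe sets, of lower signal, gave -0.27 and 0.23 for IL-13 24 h against control 24 h and -0.04 and 0.04 for IL-13 24 h against 0 h. With all probe sets of a gene averaged, the 3 calls were lost, at 0.10, 0.22 and 0.21 in the order above (limma adjusted p of 0.584, 0.278 and 0.24).

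The largest of these, IL-13 24 h against 0 h, passed without any 1 array, at 0.58 to 0.68. The call against control 24 h was lost without any 1 IL-13 24 h array and without array a or c of control 24 h (0.26 to 0.37, limma adjusted p from 0.0576 to 0.188), and in 10 of 19 alternatives in all. The 12 h call was lost without array a or b of either group (0.37 to 0.44, limma adjusted p from 0.0548 to 0.0876), and in 6 of 19 in all.

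FASN, the fatty acid synthase that makes palmitate, ran the other way. Its signal (probe set 212218_s_at) was 517, 548 and 611 in untreated cells at 0 h and 441, 375 and 387 in those at 24 h. Treated cells gave 649, 506 and 817 at 4 h, 448, 385 and 420 at 12 h, and 256, 350 and 262 at 24 h. All 3 arrays with 24 h of IL-13 lay below the other 12.

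FASN was 1.86-fold lower at 24 h of IL-13 than at 0 h, with a difference of -0.90 ± 0.15 log2 (limma adjusted p = 0.00119), and lower than at 12 h of IL-13, with -0.52 ± 0.15 (limma adjusted p = 0.0423). Against control 24 h the difference was -0.48 ± 0.15, with groups that did not overlap and a limma adjusted p of 0.0554 that missed the threshold. Untreated cells had -0.42 ± 0.15 from 0 h to 24 h (limma adjusted p = 0.12), in the same direction. The second probe set of FASN, which lay below the filter, gave 0.14 ± 0.19 for IL-13 24 h against 0 h, and the mean of both gave -0.38 ± 0.15 (limma adjusted p = 0.13). The call against 0 h passed without any 1 array, at -1.04 to -0.81, and that against 12 h was lost without array a or c of either group (-0.51 to -0.44, limma adjusted p from 0.115 to 0.159) and in 10 of 19 alternatives in all.

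SCD and SCD5 are stearoyl-CoA desaturases, which turn saturated into monounsaturated fatty acids. SCD (200832_s_at) had an untreated signal of 1034, 1132 and 1175 at 0 h and 1256, 1214 and 1063 at 24 h. Under IL-13 it was 1259, 1019 and 1291 at 4 h, 1074, 1086 and 918 at 12 h, and 1377, 1379.9 and 1333 at 24 h. The 24 h arrays with IL-13 were all higher than those at 12 h, by 0.38 ± 0.10 log2 (limma adjusted p = 0.0373). Against control 24 h the difference of SCD was 0.07 ± 0.10, with a 95% interval of -0.15 to 0.29. The other 3 probe sets of SCD gave -0.10 to 0.08 for 24 h against 12 h, the mean of all 4 gave 0.10 (limma adjusted p = 0.75), and the call was lost without any 1 of the 6 arrays (0.32 to 0.41, limma adjusted p from 0.0553 to 0.144) and in 10 of 19 alternatives in all.

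SCD5 (220232_at) had the widest standard error of the members tested. In control 0 h its arrays read 188, 266 and 162, and in control 24 h 551, 421 and 758. With IL-13 they read 464, 397 and 268 at 4 h, 439.8, 201 and 256 at 12 h, and 174, 515 and 135 at 24 h. The untreated groups did not overlap, while IL-13 24 h array b lay within the range of control 24 h and the other 2 arrays lay below it.

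SCD5 rose 2.74-fold in untreated cells from 0 h to 24 h, by 1.45 ± 0.36 log2 (limma adjusted p = 0.0302), and was 2.35-fold lower with IL-13 than without it at 24 h, by a difference of -1.23 ± 0.36 (limma adjusted p = 0.0424). Its difference between IL-13 24 h and control 0 h was 0.22 ± 0.36 (limma adjusted p = 0.793). Without the deviating array b of IL-13 24 h the contrast with control 24 h was -1.77 (limma adjusted p = 0.00259), and it was lost without array a or c of either group (-1.25 to -0.89, limma adjusted p from 0.101 to 0.207) and in 9 of 19 alternatives in all. The rise in untreated cells was lost without any 1 array of control 0 h or without control 24 h array a or c (1.23 to 1.64, limma adjusted p from 0.0562 to 0.129), and in 7 of 19 in all.

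ACLY, the ATP citrate lyase that supplies cytosolic acetyl-CoA to both branches, had a signal (201128_s_at) of 2552, 2229 and 2362 at 0 h without IL-13, and 2548, 2896 and 2637 at 24 h without it. The treated arrays had 2399, 2373 and 2497 at 4 h, 2451, 2191 and 2583 at 12 h, and 2283, 1872 and 2531 at 24 h. The IL-13 24 h arrays lay below those of control 24 h, with array c just under the lowest control. The difference was -0.37 ± 0.10 log2 (limma adjusted p = 0.0379), and the other 2 probe sets gave -0.14 and -0.08. It was lost without any 1 array of control 24 h or without IL-13 24 h array a or b (-0.39 to -0.27, limma adjusted p from 0.077 to 0.132), and in 13 of 19 alternatives in all. Among these were the deposited scaling (-0.28), median scaling (-0.11, limma adjusted p = 0.605) and the mean of the probe sets (-0.20).

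Of the 3 fatty acid members that did not pass, ACACA, the acetyl-CoA carboxylase that commits carbon to fatty acids, had the smallest p. Its difference was 0.36 ± 0.12 from control 0 h to control 24 h (limma adjusted p = 0.1), with groups that did not overlap, and -0.25 ± 0.12 for IL-13 24 h against control 24 h (limma adjusted p = 0.202). The other probe set of ACACA, 214358_at, went the other way in mean signal. That set read 68.1 ± 8.08 in control 0 h and 51.6 ± 30.8 in control 24 h (mean ± SD). In IL-13 24 h it read 58.7 ± 6.28. ELOVL6, which lengthens saturated fatty acids, had differences of -0.10 to 0.22. FADS2, the delta-6 desaturase, had a signal of 404 to 1073 over the arrays and its largest difference, -0.55 ± 0.21, at 24 h of IL-13 against 0 h (limma adjusted p = 0.126).

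**Figure D3:**
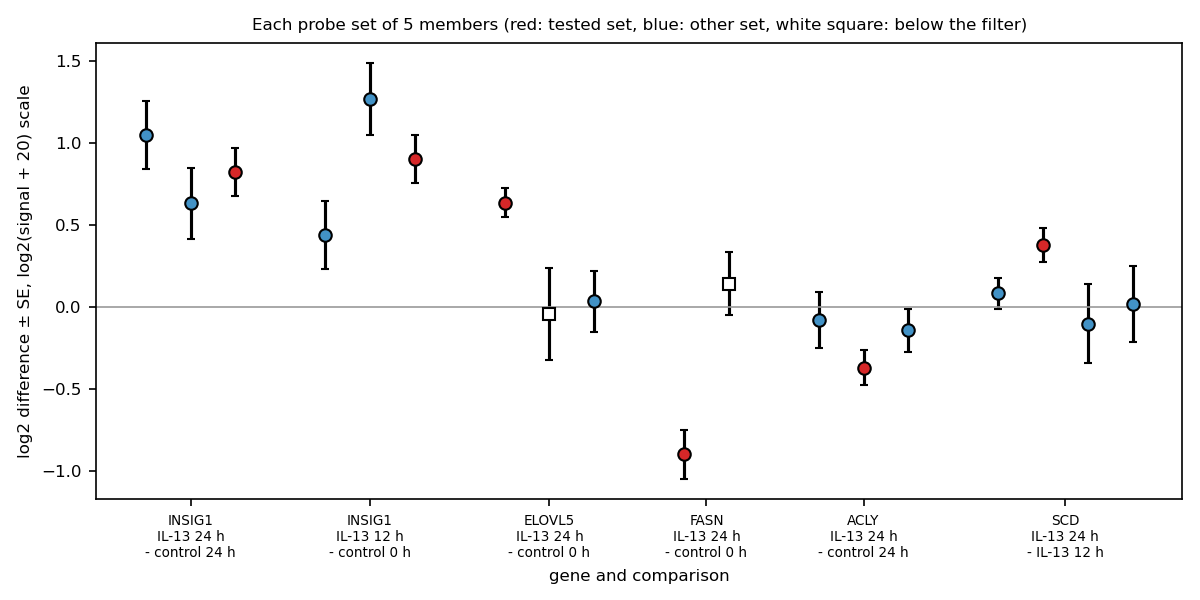
Log2 difference ± SE of each probe set of 5 members in the named comparison, with the tested set in red, other sets in blue and sets below the filter as white squares. The 3 sets of INSIG1 lie above 0 in both comparisons, while the other sets of ELOVL5, FASN, ACLY and SCD lie nearer to 0 than the tested set.

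Of the 4 genes of glycerolipid synthesis and sterol traffic, NPC2 passed once. NPC2 is the lysosomal protein that hands cholesterol to NPC1 for export. Its signal (200701_at) was 1114, 1222 and 1298 in the 0 h controls, but 758, 959 and 864 in the 24 h controls. The IL-13 arrays gave 1151, 1233 and 1469.8 at 4 h, 1252, 1298 and 1142 at 12 h, and 1009, 1148 and 1132 at 24 h. All 3 control 24 h arrays were below the other 12.

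In untreated cells NPC2 fell from 0 h to 24 h, with a difference of -0.39 ± 0.10 log2 (limma adjusted p = 0.039). With IL-13 against without it at 24 h the difference was 0.23 ± 0.10 (limma adjusted p = 0.177), which passed under both kinds of median scaling. The fall was lost without any 1 array of control 0 h or without control 24 h array a or c (-0.44 to -0.31, limma adjusted p from 0.0553 to 0.149), and in 8 of 19 alternatives in all. NPC1 had the smallest p of the other 3, -0.41 ± 0.17 at 12 h of IL-13 against 0 h (limma adjusted p = 0.215), and 0.35 ± 0.17 at 24 h against control 24 h (limma adjusted p = 0.22). LPIN1, a phosphatidate phosphatase, had differences of -0.17 to 0.18, and ABCA1, the cholesterol efflux pump, of -0.21 to 0.27. Another probe set of each, above the filter, went past these ranges: 203505_at of ABCA1 gave -0.47 ± 0.14 at 4 h of IL-13 against 0 h and 0.41 ± 0.14 from 4 h to 12 h, and 212274_at of LPIN1 gave 0.40 ± 0.18 from 4 h to 12 h. With each set as its own test the limma adjusted p was 0.305, 0.443 and 0.593.

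As a set, the 30 tested members moved little. Their mean log2 signal per array was 8.24 ± 0.01 and 8.22 ± 0.04 in the controls of 0 h and 24 h, and 8.35 ± 0.06, 8.31 ± 0.05 and 8.22 ± 0.05 along the IL-13 times (mean ± SD, 3 arrays each). Over all tested genes it was 7.90 to 7.91 in each group. The 3 arrays at 4 h and the 3 at 12 h of IL-13 all lay above those of control 0 h. The mean difference of the members from control 0 h was 0.11 at 4 h and 0.07 at 12 h, but 0.0519 and -0.0037 under median scaling, so at 12 h its direction turned with the scaling. The median difference of the members was 0.03 for IL-13 24 h against control 24 h and -0.09 for control 24 h against 0 h, where that of all tested genes was 0.0016 and -0.003. Against control 0 h it was 0.09 at 4 h, 0.05 at 12 h and -0.02 at 24 h of IL-13, then -0.01 from 4 h to 12 h and -0.06 from 12 h to 24 h, where the median of all genes lay between -0.0056 and 0.0071.

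By role, the means of log2 signal followed different courses. The mevalonate genes stood at 8.14 ± 0.03 and 8.06 ± 0.06 in the 0 h and 24 h controls, at 8.25 ± 0.01 and 8.26 ± 0.08 after 4 h and 12 h of IL-13, and at 8.02 ± 0.04 after 24 h. The 4 genes of glycerolipid synthesis and sterol traffic stood at 8.14 ± 0.01 in control 0 h, 7.93 ± 0.03 in control 24 h, and 7.998 ± 0.04, 8.04 ± 0.08 and 8.13 ± 0.01 along the IL-13 times. The fatty acid genes were at 9.11 ± 0.06 and 9.32 ± 0.07 in the controls and went from 9.30 ± 0.12 at 4 h to 9.09 ± 0.14 at 24 h of IL-13, a mean over genes that differed in direction. These means are descriptions and were not tested.

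**Figure D4:**
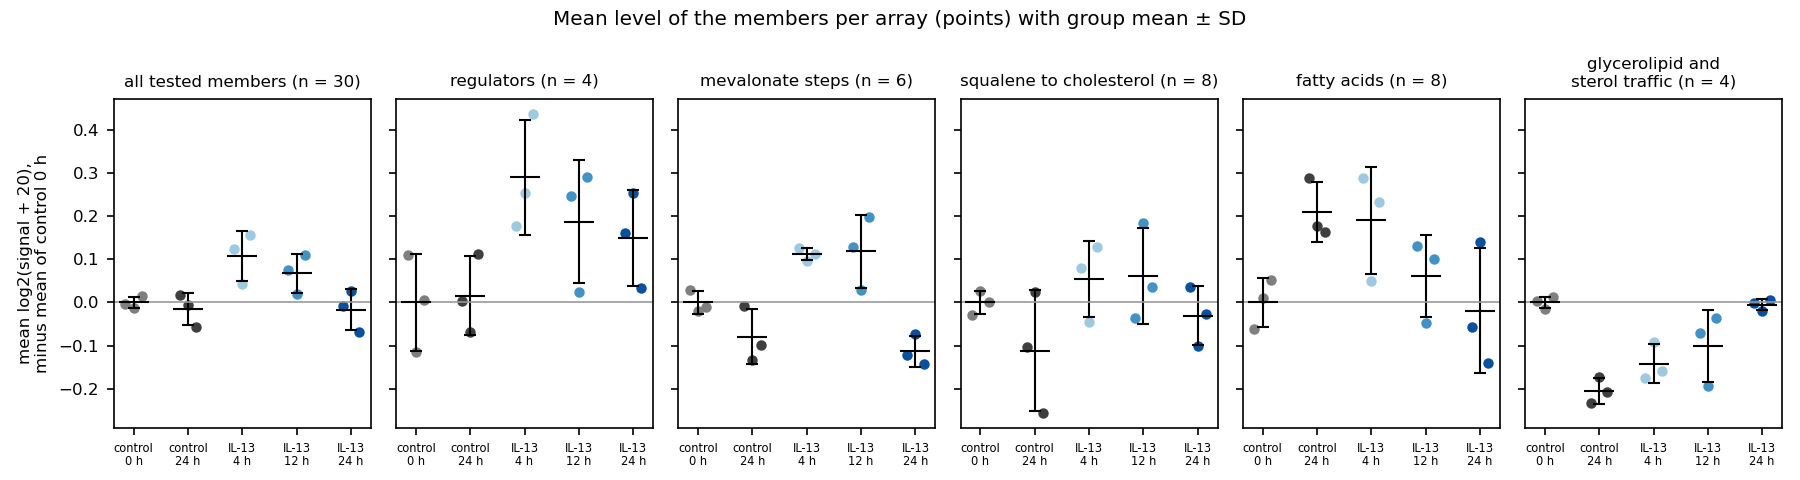
Mean of log2(signal + 20) over the tested members of the list and of each role, per array (points) with the group mean ± SD (n = 3), drawn as the difference from the mean of control 0 h. For all 30 members the IL-13 4 h and 12 h arrays lie above those of control 0 h, though under median scaling the mean difference at 12 h was -0.0037. For the 4 genes of glycerolipid synthesis and sterol traffic control 24 h has the lowest group mean, with arrays that overlap those of IL-13 4 h and 12 h, and IL-13 24 h is at the level of control 0 h.

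A second list of 43 genes of the same pathways, made of SREBP processing, the isoprenoid branch, further lipogenic enzymes and sterol traffic, was counted beside the members, with the same shares of all genes as background. Of these, 36 had a probe set of their own and 34 were tested. Limma called 2 of the 34 (5.88%) in IL-13 12 h against 0 h, where 4.14% of all genes passed. It called 2 (5.88%) in IL-13 24 h against 0 h, against 6.87%, and 3 (8.82%) in 24 h against 12 h, against 6.2%. In IL-13 24 h against control 24 h 1 of the 34 (2.94%) was higher and 0 lower, against 7% of all genes. It was LIPA, the lysosomal acid lipase that frees cholesterol from its esters. Its signal was 566, 644 and 580 in control 24 h and 751, 750.0 and 859 with IL-13, a difference of 0.32 ± 0.09 log2 (limma adjusted p = 0.0489). LIPA was also higher than control 0 h by 0.36 ± 0.09 at 12 h (limma adjusted p = 0.0376) and by 0.48 ± 0.09 at 24 h of IL-13 (limma adjusted p = 0.00471). The last passed without any 1 array. The 12 h call was lost without any 1 of its 6 arrays (0.29 to 0.40, limma adjusted p from 0.0582 to 0.149) and in 12 of 19 alternatives in all, among them the 3 other scalings (0.27 to 0.34). The first was lost without any 1 IL-13 24 h array and without array a or c of control 24 h (0.26 to 0.35, limma adjusted p from 0.0696 to 0.194), and in 10 of 19 in all.

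VLDLR, a lipoprotein receptor, was lower at 12 h of IL-13 than at 0 h by a difference of -0.50 ± 0.11 (limma adjusted p = 0.0104) and higher at 24 h than at 12 h by 0.45 ± 0.11 (limma adjusted p = 0.0159). Its signal was 216, 194 and 232 in control 0 h, 159, 140.4 and 133.4 at 12 h and 204, 219 and 190.1 at 24 h of IL-13. The first call was lost without array c of either group (-0.44 and -0.43, limma adjusted p of 0.0607 and 0.0632), the second without IL-13 12 h array c or IL-13 24 h array b (0.39 and 0.41, limma adjusted p of 0.0559 and 0.0768) and in the model of the compared groups alone (0.46, limma adjusted p = 0.0609).

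FNTA, a subunit of the farnesyltransferase that uses farnesyl diphosphate, rose from 12 h to 24 h of IL-13 by 0.44 ± 0.08 (limma adjusted p = 0.00278), also without any 1 array. It was higher at 24 h of IL-13 than at 0 h by 0.28 ± 0.08 (limma adjusted p = 0.0471), which was lost without any 1 of the 6 arrays (0.23 to 0.32, limma adjusted p from 0.0555 to 0.18) and in 14 of 19 alternatives in all, among them the 3 other scalings (0.27 to 0.28). HSD17B12, a reductase of fatty acid elongation, rose from 12 h to 24 h by 0.36 ± 0.08 (limma adjusted p = 0.016), a call lost without IL-13 12 h array a or IL-13 24 h array b (both 0.32, limma adjusted p of 0.0579 and 0.0819) or with the compared groups alone (0.36, limma adjusted p = 0.0505). In control 24 h against 0 h, in IL-13 4 h against 0 h and in 12 h against 4 h limma called 0 of the 34. Of them 5, 3 and 1 had an unadjusted p under 0.05 (14.7%, 8.82% and 2.94%), each a smaller share than the 19.3%, 10.6% and 10.1% of all genes.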

How the data were processed

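Affymetrix hgu133a signal was read for 15 arrays, 22283 probe sets each, in 5 groups of 3. The deposited values are signal intensities on a linear scale. Their algorithm was not given in the sources used here. After trimming 2% at each end, every array had a mean of 150.04 to 150.06, as deposited. Array medians differed by up to 0.27 log2, so log2(signal + 20) was quantile normalized. Gene names came from GEO's platform annotation: 19065 probe sets carry 1 symbol, 1043 several, 2107 none, and 68 are controls; those with several or none were left out. Each gene took its brightest probe set, a cross-hybridizing _x_at set only where it had no other, and genes with mean log2 over 6.33, the median of the non-control probe sets, were tested.

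A linear model of all 15 arrays with 1 coefficient per group, leaving 10 residual degrees of freedom, was fitted with limma 3.58.1 (R 4.3.3), with trended empirical Bayes, two-sided tests, Benjamini-Hochberg over all 6884 genes. The steps were tested on simulated data. Named genes were all members, in full where called in any comparison, the uncalled member with the smallest p per role, and called genes of the second list. The members and lists were chosen with earlier results of these data known. Alternatives were 3 other scalings, pseudocounts of 1 and 62, no filter or the 75th percentile, the mean of probe sets, each probe set as its own test, the compared groups alone, array weights, a fit with no variance trend, the replicate letter as a block, and the omission of each array. Promoters came from RefSeq windows (GRCh38.p14). No scanner files or detection calls were used here.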

Additional observations from a re-analysis of the deposited data

How the results depend on the processing

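No difference of a called gene changed sign under any of 19 alternatives (18 for INSIG1, which fell below the 75th percentile filter). Several of these could not turn a sign, because they leave the difference itself unchanged. They are the filters, no variance trend, the replicate block and each probe set as its own test, which kept the tested set. Single other probe sets of INSIG1, ELOVL5, FASN and SCD did have the opposite sign in a called comparison. The counts of called members did change. For IL-13 24 h against control 24 h (4) it was 1 with no filter, the mean of probe sets or no variance trend, 2 with the replicate block and 0 with the compared groups alone, and without 1 array 1 to 4: 1 without control 24 h a or c or IL-13 24 h a, 2 without IL-13 24 h c. For control 24 h against 0 h (2) it was 8 under median scaling, 0 with no filter or no variance trend, 1 with the compared groups alone, and 0 to 3 without 1 array: 0 without any control 0 h array or control 24 h a or c, 3 without control 24 h b. For 4 h against 0 h (1) it was 0 with the deposited scaling, pseudocount 1, no filter, the 75th percentile, each probe set on its own, no variance trend, the replicate block, the compared groups alone, or without any 1 array (0 to 0). For 12 h against 0 h (2) it was 1 under median scaling, the 75th percentile or the mean of probe sets, and 1 to 2 without 1 array: 1 without control 0 h a or b or IL-13 12 h a or b. For 24 h against 0 h (2) it was 1 with the mean of probe sets, where INSIG1 passed instead. For 24 h against 12 h (3) it was 0 with no filter or the mean of probe sets, 1 with no variance trend or the replicate block, and 0 to 2 without 1 array: 0 without a or c of either group. Calls over all tested genes moved too. For IL-13 24 h against control 24 h, 271 higher and 211 lower became 210 and 138 with no filter, among more genes. They became 209 and 141 with no variance trend and 223 and 167 with the replicate block. With the mean of probe sets they became 263 and 146. For control 24 h against 0 h, 119 and 130 became 76 and 79 with no filter. From 12 h to 24 h, 285 and 142 became 211 and 107 with no filter. The cause was not tested.

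The mean difference of the members under median scaling was 0.16 for IL-13 24 h against control 24 h (-0.0016 as reported), -0.19 for control 24 h against 0 h (-0.02), 0.0519 at 4 h (0.11) and -0.0037 at 12 h (0.07) against 0 h, and -0.0231 for 24 h against 12 h (-0.08). With the 75th percentile filter it was -0.0991 and 0.0525 for the first 2 of these, and -0.0927 for 12 h against 4 h (-0.0395). Deviations of arrays with the same letter correlated at -0.02 on average over 30 pairs (-0.22 to 0.11), and those with other letters at 0.01 over 60. Deviations sum to 0 within a group of 3, so these averages are tied to each other. They show no large shared shift by letter, but cannot show whether a letter marks a shared culture or batch. With 3 arrays a group, differences smaller than the reach of the intervals given could not be told from 0. Those intervals are not adjusted for the number of genes, so some larger differences did not pass either. For the tested probe set of NSDHL from control 0 h to control 24 h the interval was -0.69 to -0.11, with a limma adjusted p of 0.115.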
